A study of Mus musculus with 18 samples.

Results

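The peaks described here are the widest that lie away from gene ends in a list of open-chromatin peaks of mouse embryonic stem (ES) cells. The list is merged over 18 libraries, so a width need not be that of a peak in any 1 library. These peaks were selected on peak width and position, as autosomal peaks of 2000 bp or more whose midpoint is more than 2 kb from the start or end of every annotated gene of any biotype on the GRCm38 genome. The rule found 1051 peaks, called wide distal peaks below, among 166066 peaks in all, of which 160099 were autosomal. Of 123111 autosomal peaks more than 2 kb from gene ends, the wide ones made up 0.854%, and the other 122060 are called other distal peaks. A further 1799 autosomal peaks of 2000 bp or more lay nearer to a gene end and are not members. Width and distance chose the peaks, so neither is a finding here.

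The peaks come from ATAC-seq, in which a transposase cuts and tags accessible DNA. The study collected 18 libraries, 3 at each of 0, 3, 6, 12, 24 and 48 h after 100 µg/ml auxin was added together with dTAG13 at a final 0.5 µM, to follow where chromatin opens when H3K9 methyltransferases are lost. All 18 libraries are of the line dTKO, with the genotype floxed Suv39h1 (Suv39h1fl/fl), deleted Suv39h2 (Suv39h2-/-) and floxed Setdb1 (Setdb1fl/fl), so the 0 h baseline carries the same alleles as every later time. Auxin and dTAG13 trigger degradation of suitably tagged proteins, and the labels do not name the protein that carries a tag. The cells grew in LIF and serum on gelatin, and dTKO is 1 line, so nothing here speaks to variation between lines. The deposited peak list merges all libraries and gives positions only, with no height, read count or library. Depth is therefore unknown, no time point can be set against another, and peaks are not replicates of a condition. Shares below carry 95% Wilson intervals, which cover counting over peaks, starts or genes only.

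Distal open chromatin in ES cells includes enhancers, DNA elements bound by transcription factors that act on genes from a distance. It also includes promoters of alternative transcripts inside genes. Promoters of many genes sit in CpG islands, stretches rich in the dinucleotide CG that are usually unmethylated and open. Trimethylation of H3K9, laid down by Suv39h1, Suv39h2 and Setdb1, keeps repeats and many multi-copy gene clusters compact and silent.

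Some wide distal peaks cover an annotated transcript start that lies inside a gene, and the DNA just upstream of such starts shows how they differ in base composition. The 250 bases before 5 starts that lie in wide distal peaks are printed 5′ to 3′ on the strand of the gene from the RefSeq promoter table of GRCm38.p6, with each CG dinucleotide in capitals. Those of Dnmt3a, Gnas and Axin2 were CG-rich, that of Mest lay between, and that of Lair1 is shown as the contrast.
Dnmt3a, chr12:3806910-3807159, plus strand: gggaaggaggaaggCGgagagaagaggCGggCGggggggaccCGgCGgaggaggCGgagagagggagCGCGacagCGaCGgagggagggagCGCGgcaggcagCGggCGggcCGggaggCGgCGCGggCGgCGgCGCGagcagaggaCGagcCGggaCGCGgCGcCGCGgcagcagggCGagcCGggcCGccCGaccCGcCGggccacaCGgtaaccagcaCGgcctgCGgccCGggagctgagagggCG
Gnas, chr2:174329756-174330005, plus strand: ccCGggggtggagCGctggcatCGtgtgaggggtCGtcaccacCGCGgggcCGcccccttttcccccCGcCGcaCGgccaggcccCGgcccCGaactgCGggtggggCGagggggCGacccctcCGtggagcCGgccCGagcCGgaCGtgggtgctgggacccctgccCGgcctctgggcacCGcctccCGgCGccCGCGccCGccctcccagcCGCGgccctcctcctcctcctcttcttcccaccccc
Axin2, chr11:108920099-108920348, plus strand: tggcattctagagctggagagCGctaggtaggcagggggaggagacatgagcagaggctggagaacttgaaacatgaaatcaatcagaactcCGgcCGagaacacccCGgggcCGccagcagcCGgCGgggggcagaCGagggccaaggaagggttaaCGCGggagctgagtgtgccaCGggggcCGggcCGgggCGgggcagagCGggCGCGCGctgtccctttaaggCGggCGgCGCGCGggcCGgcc
Mest, chr6:30737800-30738049, plus strand: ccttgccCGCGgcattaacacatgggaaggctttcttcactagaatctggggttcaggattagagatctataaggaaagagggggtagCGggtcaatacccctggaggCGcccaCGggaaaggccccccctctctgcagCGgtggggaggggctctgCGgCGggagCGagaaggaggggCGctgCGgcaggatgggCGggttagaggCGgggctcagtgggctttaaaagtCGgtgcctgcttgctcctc
Lair1, chr7:4063205-4063454, minus strand: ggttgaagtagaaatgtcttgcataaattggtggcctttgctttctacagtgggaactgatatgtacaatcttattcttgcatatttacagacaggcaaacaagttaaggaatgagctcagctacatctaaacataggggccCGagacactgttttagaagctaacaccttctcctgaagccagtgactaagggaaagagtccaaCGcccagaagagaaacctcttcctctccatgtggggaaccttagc

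Dnmt3a encodes a DNA methyltransferase that sets new methylation, and its 250 bases held 40 CG dinucleotides and were 80.8% G or C. The stretch lay in a peak of 2999 bp that covered 2 starts of the gene. The other start, at position 3806980, lies within the printed bases, so part of the stretch is downstream of that start. Gnas encodes the alpha subunit of the stimulatory G protein and lies in an imprinted locus with several promoters. Its stretch held 29 CG dinucleotides in a peak of 2375 bp. Axin2, a scaffold that limits Wnt signalling, had 24 at a peak of 2260 bp. Mest, an imprinted gene expressed from the paternal allele, had 14 in a peak of 2223 bp. Lair1, an inhibitory receptor of immune cells, had 2 and was 44.0% G or C. Its start lay near the edge of a peak of 2522 bp, so that 85 of the 250 bases and 1 of the 2 CG dinucleotides were inside the peak. Of the Axin2 bases 234 were inside the peak, with all 24 CG dinucleotides, and the other 3 stretches lay wholly inside theirs. The motif GGGCGG was present 4 times in the Dnmt3a stretch, 2 times in that of Gnas, 2 times in that of Axin2, 1 time in that of Mest and 0 times in that of Lair1, counted on both strands. TATAAA was present in none of the 5 on either strand.

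Most wide distal peaks were only just wide enough. Their median width was 2210 bp, with quartiles of 2086 and 2442 bp, and 826 of 1051 (78.6%) were narrower than 2500 bp. Another 148 measured 2500 to 2999 bp, 57 measured 3000 to 3999 bp, 10 measured 4000 to 4999 bp and 10 measured 5000 bp or more. The cut fell on a smooth slope, with 298 distal peaks of 2000 to 2099 bp inside the rule and 417 of 1900 to 1999 bp just outside it. The narrowest members measured 2000 bp and the widest peaks left out 1999 bp. On the side of distance, 133 peaks of 2000 bp or more lay more than 2 and up to 3 kb from a gene end, while 297 lay more than 1 and up to 2 kb away and were left out.

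Of the 15 widest peaks, 11 lay between genes. The widest of all, chr3:6297553-6307553, measured 10001 bp. Its nearest protein-coding gene, 1700008P02Rik, was 313 kb away, and its nearest neighbouring peak 26.5 kb away. The next was chr8:20677451-20685372 at 7922 bp, 34.7 kb from the predicted gene Gm21119. Peaks of 6111 and 5798 bp lay on either side of it near the same gene. A peak of 7059 bp at chr10:27818568-27825626 had Lama2, a laminin chain of basement membranes, as its nearest protein-coding gene at a distance of 205 kb. Peaks of 5415, 5200 and 5000 bp were likewise far from their nearest protein-coding genes: 155 kb from Nup35, a nuclear pore protein, 174 kb from Gpr158, a G protein-coupled receptor, and 1205 kb from Aga, a lysosomal enzyme.

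The other 4 of the 15 sat inside genes. Klhdc4, a kelch-domain protein, held a peak of 5724 bp that was 4.81 kb from its end. Sik3, a salt-inducible kinase, held a peak of 5646 bp at 88.6 kb from its nearer end, and a second one of 2095 bp at 68.3 kb. S100a7l2, an S100-type gene, held one of 4890 bp, and Tchh, the hair follicle protein trichohyalin, one of 4416 bp. The remaining peaks among the 15 widest were 1 of 4498 bp near Sfi1, a centrin-binding protein, 1 of 4491 bp near the vomeronasal receptor gene Vmn1r238, and 1 of 4350 bp whose nearest protein-coding gene was Mctp2. Sfi1 held a second wide peak of 3526 bp inside the gene.

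**Figure D1:**
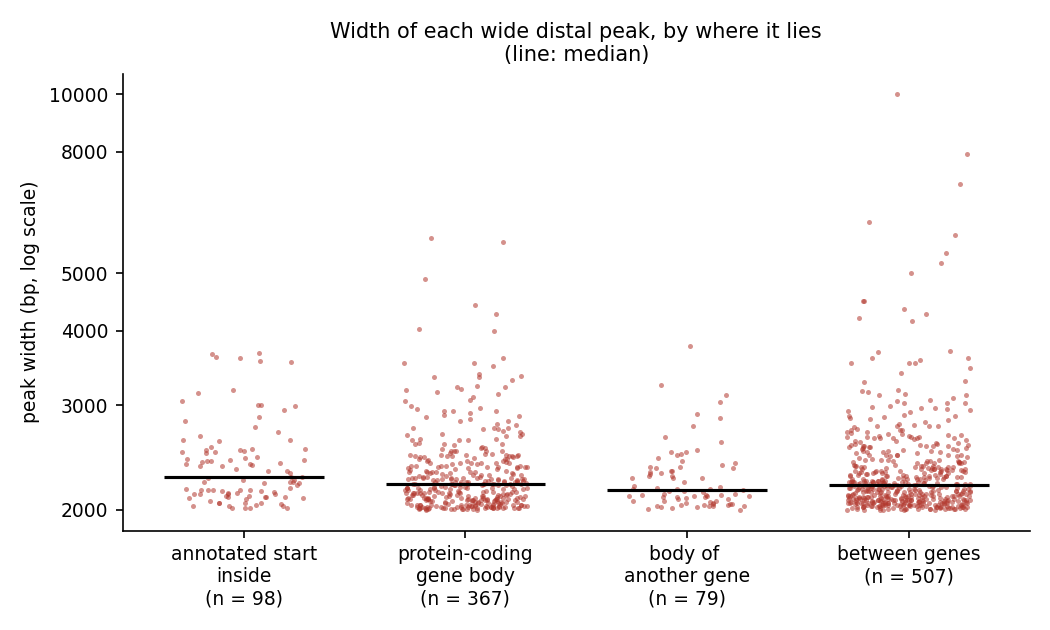
Each point is 1 wide distal peak, with its width in bp on a log scale, split into peaks that cover an annotated transcript start (98), other peaks in a protein-coding gene (367), peaks in a gene of another kind (79) and peaks between genes (507). Horizontal lines are medians, which lie between 2160 and 2274.5 bp, and the peak of 10001 bp lies between genes.

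Placement relative to genes was close to even. Of the 1051 wide distal peaks, 544 (51.8%, interval 48.7 to 54.8%) had their midpoint inside a gene of any biotype, against 56.0% of other distal peaks. Protein-coding genes held 464 (44.1%, interval 41.2 to 47.2%), against 49.3% of other distal peaks. The 507 between genes made up 48.2%, against 44.0%. Distance to gene ends was part of the rule, so its values only describe the selected peaks: the median was 10.6 kb for wide distal peaks and 13.4 kb for other distal peaks, and 118 wide distal peaks lay more than 50 kb from every gene end. Of wide distal peaks outside protein-coding genes with a known strand of the nearest one, 214 of 447 (47.9%, interval 43.3 to 52.5%) had its 5′ end nearer than its 3′ end, against 53.3% of other distal peaks.

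Counted once per peak, host genes were shorter by median than those of other distal peaks. The median length of the protein-coding host was 80.0 kb over 464 wide distal peaks and 96.6 kb over 60206 other distal peaks. The median of all autosomal protein-coding genes, each counted once, was 17.6 kb. The 464 wide distal peaks lie in 439 genes, whereas a gene with many other distal peaks counts once for each. No interval was computed for these medians, and hosts counted once per gene were not compared. The rule itself bars hosts shorter than 4 kb, and a longer gene offers more positions for a midpoint. The greater length against all genes is therefore not a finding.

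Wide distal peaks covered annotated transcript starts more often than narrower distal peaks. On the 18 autosomes with starts in the promoter table, 98 of 1011 wide distal peaks (9.69%, interval 8.02 to 11.7%) covered at least 1 start, against 0.989% of 117964 other distal peaks. The share grew with width: it was 0.185% under 500 bp, 0.727% at 500 to 999 bp, 3.58% at 1000 to 1499 bp, 7.24% at 1500 to 1999 bp and 9.69% at 2000 bp or more. A wider peak covers more bases, so the same starts were also counted per length. Wide distal peaks held 53.7 starts per Mb of peak, peaks of 1500 to 1999 bp 50.8, and all other distal peaks 18.3. Per base, the wide distal peaks were thus close to the next narrower bin and well above distal peaks as a whole.

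The 98 peaks held 129 starts of 98 genes, and 21 peaks held 2 or more. Ubtf, a transcription factor of ribosomal RNA genes, had 5 starts in 1 peak of 3672 bp at chr11:102316292-102319963. This was the widest peak with a start. Sall2, a zinc finger transcription factor, followed with 3656 bp, Agap2, a GTPase-activating protein, with 3610 bp, Midn with 3600 bp, the Hedgehog receptor gene Ptch1 with 3555 bp and the phosphodiesterase gene Pde10a with 3545 bp. None of the peaks over 4000 bp covered a start in the table. Runx1, a transcription factor of blood formation, had a start covered by a peak of 2498 bp that lay 64.2 kb from the nearest gene end.

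Starts in wide distal peaks were rich in CG. Over the 300 bases around each start (250 before, 50 after, not trimmed to the peak), the median was 9.33 CG dinucleotides per 100 bp over 129 starts in wide distal peaks. It was 4.33 over 1305 starts that lay more than 2 kb from gene ends in other distal peaks, and 1.00 over 2037 such starts in no peak. It was 5.67 over the 35 such starts in peaks near a gene end. Over the 113 starts in wide distal peaks that also lay more than 2 kb from gene ends the median was 9.67. G and C content had a median of 67.3% at the 129 starts in wide distal peaks, 57.3% at starts in other distal peaks and 47.0% at those in no peak. Within distal peaks the median CG density rose with peak width from 1.67 per 100 bp under 500 bp to 7.0 at 1500 to 1999 bp and 9.33 at 2000 bp or more. The values within the wide peaks were spread out, with quartiles of 5.00 and 13.3. A group of 97 starts had 5 or more per 100 bp, and 5 starts had fewer than 1.

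The motif GGGCGG, a GC box that itself contains a CG, was found on either strand of 96 of 129 windows (74.4%, interval 66.3 to 81.2%) at starts in wide distal peaks. It was found in 51.6% of windows at starts in other distal peaks, 8.15% of those in no peak, 71.4% (interval 54.9 to 83.7%) of the 35 that lay more than 2 kb from gene ends but in a peak near one, and 36.0% of windows at all 31396 autosomal starts. TATAAA, the core of the TATA box, ran the other way, with 5.43% (interval 2.65 to 10.8%) in wide distal peaks, 7.13% in other distal peaks, 18.4% in no peak and 13.6% at all starts. The interval of wide distal peaks includes the value of other distal peaks for TATAAA and lies above it for GGGCGG, but for GGGCGG it includes that of peaks near a gene end. Among the 113 starts, GGGCGG was found at 77.0% and TATAAA at 3.54%. The 129 windows lie in 98 peaks and some overlap, as at Mest. The intervals count each window as independent and do not allow for this. These matches describe letters in the window and not bound sites.

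**Figure D2:**
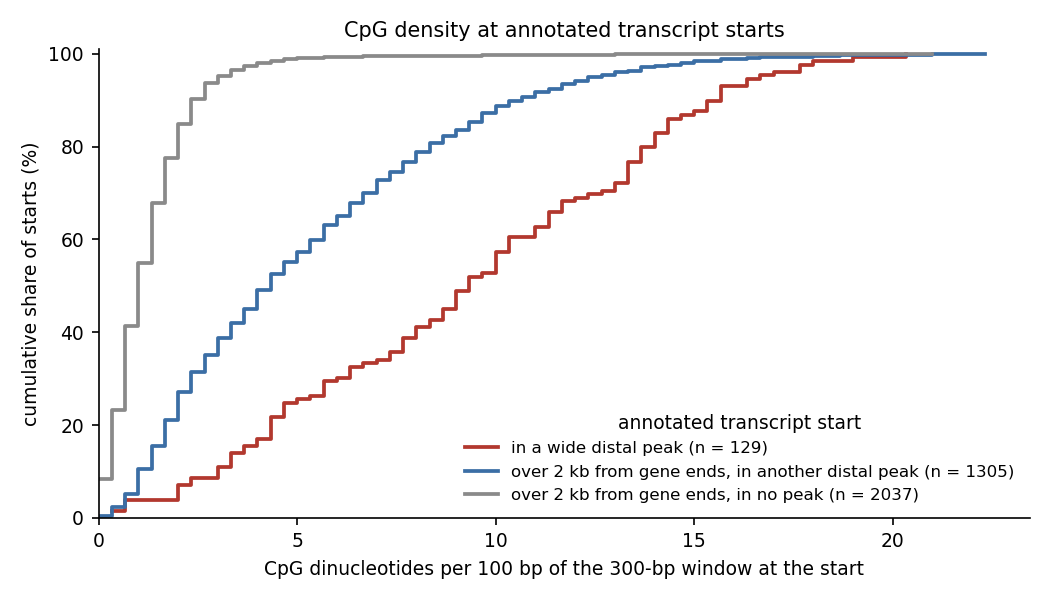
Cumulative share of annotated starts (percent) by CG dinucleotides per 100 bp of the 300-bp window, for 129 starts in wide distal peaks, 1305 starts over 2 kb from gene ends in other distal peaks and 2037 such starts in no peak. The curve of wide distal peaks lies furthest to the right over most of its range, with a median of 9.33 against 4.33 and 1.00.

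Seen from the annotation, wide distal peaks held a small part of internal starts. Of 3490 starts more than 2 kb from every gene end, 113 (3.24%, interval 2.70 to 3.88%) lay in a wide distal peak, 37.4% in another distal peak, 1.00% in a peak near a gene end and 58.4% in no peak.

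Wide distal peaks leaned to the 5′ side of their hosts, and the lean was seen only with start-holding peaks included. Among 362 wide distal peaks in host genes of known strand, 25.4% (interval 21.2 to 30.1%) lay in the first of 5 equal parts of the gene from its 5′ end, against 16.2% of other distal peaks. Within 10 kb of the 5′ end lay 30.1% (interval 25.6 to 35.0%), against 15.3%. Among the 266 wide distal peaks without an annotated start, the first part held 14.7% (interval 10.9 to 19.4%), against 15.9% of other distal peaks without one. The share within 10 kb was then 17.3% (interval 13.2 to 22.3%), against 14.7%. Both intervals without start-holding peaks include the value of other distal peaks. In the last of the 5 parts, the peaks without a start made up 24.1% (interval 19.3 to 29.5%), against 19.3%, which unrounded lies just below that interval.

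**Figure D3:**
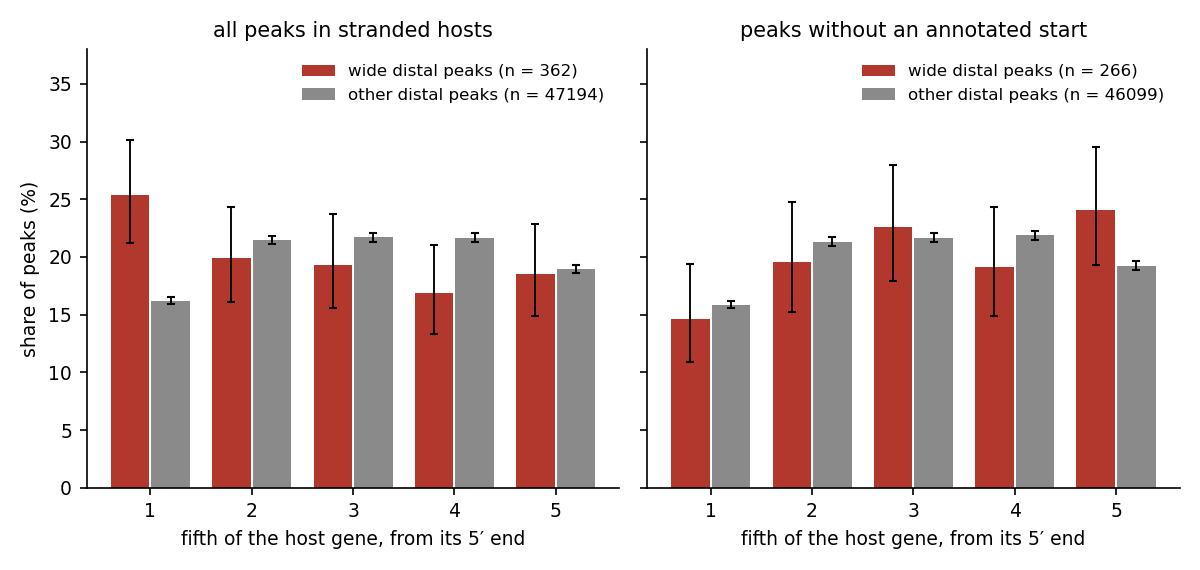
Share of peaks (percent) in each of 5 equal parts of the host protein-coding gene from its 5′ end, for wide distal peaks (red) and other distal peaks (grey), with 95% Wilson intervals; the left panel has all peaks in hosts of known strand and the right panel those without an annotated start. The first part holds 25.4% against 16.2% on the left and 14.7% against 15.9% on the right.

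Each wide distal peak was linked to 1 protein-coding gene, its host or otherwise the gene with the nearest end. This linked 954 of 20558 autosomal protein-coding genes, which is 4.64%. Most of the 954, 869, had 1 wide distal peak, 78 had 2, 3 had 3, 3 had 4 and 1 had 5. A link is a position and not evidence that the peak acts on the gene.

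Several of the genes with many wide peaks bordered large spaces without protein-coding genes, so distances were long. Pcmtd1, which encodes a protein with a methyltransferase-like domain, had 5 peaks of 2075, 2169, 2170, 2193 and 2199 bp, with 1 inside the gene and the others 17.4 to 446 kb from it. Il7, the cytokine interleukin 7, had 4 of 2077 to 2463 bp at 53.6 to 392 kb. Hnf4g, a nuclear receptor, had 4 of 2001 to 2188 bp at 7.58 to 728 kb. Gm21119 had 4 of 3603 to 7922 bp at 16.9 to 57.2 kb. Ccdc85a had 3, of which 1 of 2513 bp inside the gene covered a start and 2 of exactly 2185 bp lay 13.6 and 776 kb away. Prdm13, a neural transcription factor of the PR-domain family, had 1 of 2031 bp inside and 2 outside. The 3 linked to Cntnap5b, a contactin-associated protein, were 365 to 1812 kb away. Inside genes, 439 protein-coding genes held a wide distal peak and 25 held 2 or more.

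Lists of genes for this cell type and study were read against the 4.64% of all protein-coding genes. The lists were drawn up with earlier results of these data known. Among pluripotency factors, 3 of 26 were linked. Esrrb, a nuclear receptor of the naive state, had a peak of 2036 bp inside the gene, 4.22 kb from its end. Prdm14, a PR-domain repressor of differentiation, had one of 2321 bp at 18.3 kb. Otx2, a factor of the primed state, had one of 2112 bp at 2.12 kb. Some other genes of this list had a widest linked distal peak just under the width rule. It measured 1999 bp at 12.0 kb for Sox2, 1991 bp at 148 kb for Mycn and 1909 bp at 26.8 kb for Klf5. The signalling list held such cases too, with 1953 bp for Lefty2 and 1949 bp for Spry4. Among pluripotency factors the widest measured 1522 bp for Nanog, 1569 bp for Pou5f1, 916 bp for Klf2 and 293 bp for Utf1. Tdgf1 had 0 linked distal peaks. The median of the widest linked distal peak was 1365 bp for pluripotency factors, against 1039 bp over all 16105 protein-coding genes with a linked distal peak. Most lists described below also lay above 1039 bp. The median was 1610 bp for imprinted, 1507 bp for signalling, 1348 bp for H3K9 and DNA methylation and 1343.5 bp for trophoblast genes. Neural genes had 1289 bp, mesoderm and endoderm genes 1093 bp and fibroblast markers 1074 bp. Lower values were 923.5 bp for 2-cell, 885 bp for blood and 728 bp for germline genes. A gene with more linked distal peaks has more chances to hold a wide one. Among pluripotency factors their number ran from 0 for Tdgf1 to 61 for Sox2 and 78 for Jarid2. The part of this number in the medians and in the linked shares was not tested.

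Genes of the signals that hold ES cells in self-renewal gave 4 linked genes of 25. Lifr, a receptor subunit for LIF, held a peak of 2135 bp inside the gene. Socs3, the feedback inhibitor of the LIF pathway, had 2 of 2245 and 2038 bp at 2.73 and 5.44 kb. Axin2 had the peak of 2260 bp whose start is printed above. Ccnd1, cyclin D1 of the cell cycle, had one of 2628 bp at 2.69 kb. The median widest distal peak of this list was 1507 bp.

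Of H3K9 methylation, HP1 and DNA methylation genes, 4 of 26 were linked. Pphln1, a subunit of the HUSH silencing complex, held one of 2172 bp. Kdm4c, an H3K9 demethylase, held one of 2535 bp at 16.7 kb from its end. Dnmt3a held the peak of 2999 bp with 2 starts, and Tet2, an enzyme that oxidises methylcytosine, one of 2307 bp. Of the targeted enzymes, Setdb1 had 4 linked distal peaks, the widest of 1208 bp inside the gene, and Suv39h2 had 0. Suv39h1 is on the X chromosome, outside the rule.

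Imprinted genes gave 4 of 20. Besides Mest and Gnas, Sgce, which encodes epsilon-sarcoglycan, held one of 2625 bp, and Snrpn, a splicing protein at the Prader-Willi locus, had one of 2117 bp at 17.2 kb within the long non-coding host gene Snhg14. Of 15 genes of the 2-cell stage, 2 were linked, both copies of the Zscan4 family. The peak linked to Zscan4c measured 2783 bp at 42.8 kb, with its nearest neighbouring peak at 7.0 kb. The peak linked to Zscan4f measured 2761 bp at 43.0 kb, with its nearest neighbour at 7.12 kb. The near-equal widths and distances of this pair were not compared at the level of sequence.

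Neural genes gave 4 of 14. Pax6 held a peak of 2090 bp inside the gene, Sox1 had peaks of 2499 and 2269 bp at 31.4 and 79.0 kb, Olig1 one of 2878 bp at 14.5 kb and Neurog1 one of 2642 bp at 7.39 kb. All of these encode transcription factors of neural progenitors. Mesoderm and endoderm genes gave 1 of 15, Gata4 with 2062 bp, and trophoblast genes 1 of 9, Cdx2 with 2306 bp. Germline and meiotic genes gave 0 of 14 (interval 0 to 21.5%), with a median widest distal peak of 728 bp. Markers of other cells that a culture could hold gave 1 of 10 for fibroblasts, Twist1 with 2580 bp, and 2 of 9 for blood, Runx1 with 2498 bp and Lyz2 with 2315 bp at 18.4 kb. The Wilson intervals of 2 lists, imprinted genes (8.07 to 41.6%) and neural genes (11.7 to 54.6%), lay above 4.64% by the widest margins. Those of signalling (6.40 to 34.7%), of H3K9 and DNA methylation (6.15 to 33.5%) and of blood (6.32 to 54.7%) also began above it. The other 6 intervals included it. The median gene length was 4.49 kb in the neural list and 38.9 kb in the imprinted list. The part of gene length and of the number of linked distal peaks in these shares was not tested.

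The nearest peak of any width was more often 2.5 to 5 kb away for wide distal peaks than for other distal peaks. The median gap between successive wide distal peaks on a chromosome was 1236 kb. With 0.437 wide distal peaks per Mb of autosome, long gaps follow from their number. Whether they lie closer together or further apart than that number would give was not tested. The gap to the nearest peak of any width, edge to edge, had a median of 4.42 kb (quartiles 2.64 and 7.0 kb) for wide distal peaks and 3.65 kb (quartiles 1.43 and 7.93 kb) for other distal peaks. Gaps under 1 kb were found for 12.3% (interval 10.4 to 14.4%) of wide distal peaks, against 18.1% of other distal peaks. Gaps of 2.5 to 5 kb were found for 36.2% (interval 33.3 to 39.1%), against 22.3%.

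Within that range the bin from 4.5 to 5 kb stood out. It was the highest of the 0.5-kb bins for wide distal peaks and was not set in advance. The gap ranges compared above and below were not set in advance either, and the intervals do not allow for these choices. The bin held 99 wide distal peaks (9.42%, interval 7.80 to 11.3%), against 4.10% of other distal peaks, and the distal peaks of 1500 to 1999 bp had 7.62% there. Wide distal peaks between genes had 12.2% (interval 9.66 to 15.4%) in this bin, against 3.84% of other distal peaks between genes. In genes that are not protein-coding it was 8.86% (interval 4.36 to 17.2%), against 3.88%. In protein-coding genes without a start inside, the share was 6.27% (interval 4.21 to 9.23%), against 4.35%, and for peaks with a start inside it was 7.14% (interval 3.50 to 14.0%), against 5.14%. The last 2 intervals include the value of other distal peaks, and the differences between these classes were not tested. Over the neighbours on both sides at 4.25 to 5.5 kb, 96 of 301 beside wide distal peaks (31.9%, interval 26.9 to 37.4%) measured 1000 bp or more, against 26.2% beside other distal peaks. At nearer gaps the share was 9.35 to 15.7% beside wide distal peaks, against 13.4 to 17.3%, and at 5.5 to 10 kb it was 24.6 to 27.0%, against 25.3 to 26.1%. Neighbours beyond 4.25 kb were thus more often of 1000 bp or more beside peaks of either kind. Repeats were not analysed here, so what lies between such peaks was not tested.

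**Figure D4:**
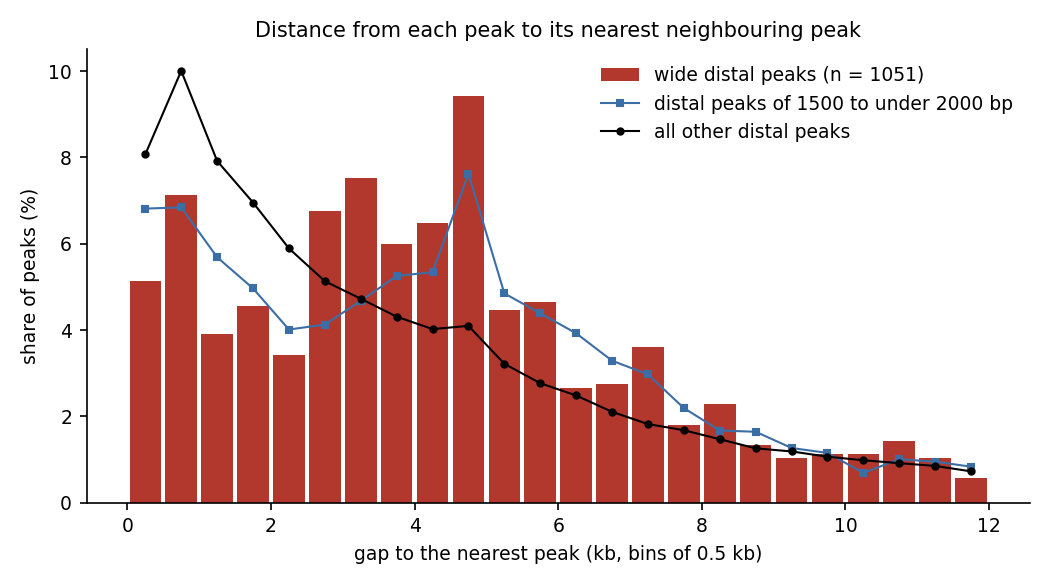
Share of peaks (percent) by the gap to the nearest peak in kb, in bins of 0.5 kb up to 12 kb, for wide distal peaks (bars), distal peaks of 1500 to 1999 bp (squares) and all other distal peaks (circles). Other distal peaks fall off from short gaps, while wide distal peaks reach 9.42% at 4.5 to 5 kb, against 4.10% of all other distal peaks.

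Close groups were counted by chaining wide distal peaks. Allowing gaps of up to 10 kb, 24 of the 1051 (2.28%) formed 12 pairs and no longer run. Whether this share is higher or lower than their number would give was not tested. Pfkp, a phosphofructokinase of glycolysis, held a pair of 3185 and 2157 bp with a gap of 0.27 kb between them, the shortest of all. Tgif1, a homeobox repressor, had a pair of 3047 and 2210 bp whose gap was 4.74 kb. Slc10a7, a transporter-family gene, held a pair of 2009 and 2877 bp with a gap of 3.23 kb. The pair near Csf2ra, a receptor chain for the growth factor GM-CSF, measured 2521 and 2166 bp. With gaps of up to 25 kb, 65 peaks formed 31 runs. The longest had 4 peaks near Gm21119 on chromosome 8, of 6111, 7922, 3603 and 5798 bp within 46.3 kb, and these 4 include 3 of the 15 widest. Of 17 genes within 250 kb of that run, 14 carry predicted-gene names.

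The densest window of 500 kb lay on chromosome 6, where 6 wide distal peaks of 2011 to 2470 bp spanned chr6:128837362-129086923. This is the cluster of Clec2 and Klrb1 genes, lectin-like receptors of natural killer cells and their ligands. Of the 6, 2 lay in gene bodies (BC035044 and Clec2g) and 4 between genes, none within 10 kb of another. On chromosome 17, 5 peaks of 2114 to 2853 bp spanned 311 kb among genes of the Dynlt stem, dynein light chains. Of these, 2 lay inside the predicted gene Gm29721, 1 inside Sytl3 and the others inside Gm29719, which is not protein-coding. The window on chromosome 8 around Gm21119 held 5 of 3030 to 7922 bp. A further 7 windows held 4 each, and the 2 with the shortest span are described. The window beside Il7 held 4 in 341 kb with only 3 genes of any kind. A window with Socs3, Tha1 and Tnrc6c held 4 in 350 kb among 14 genes.

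**Figure D5:**
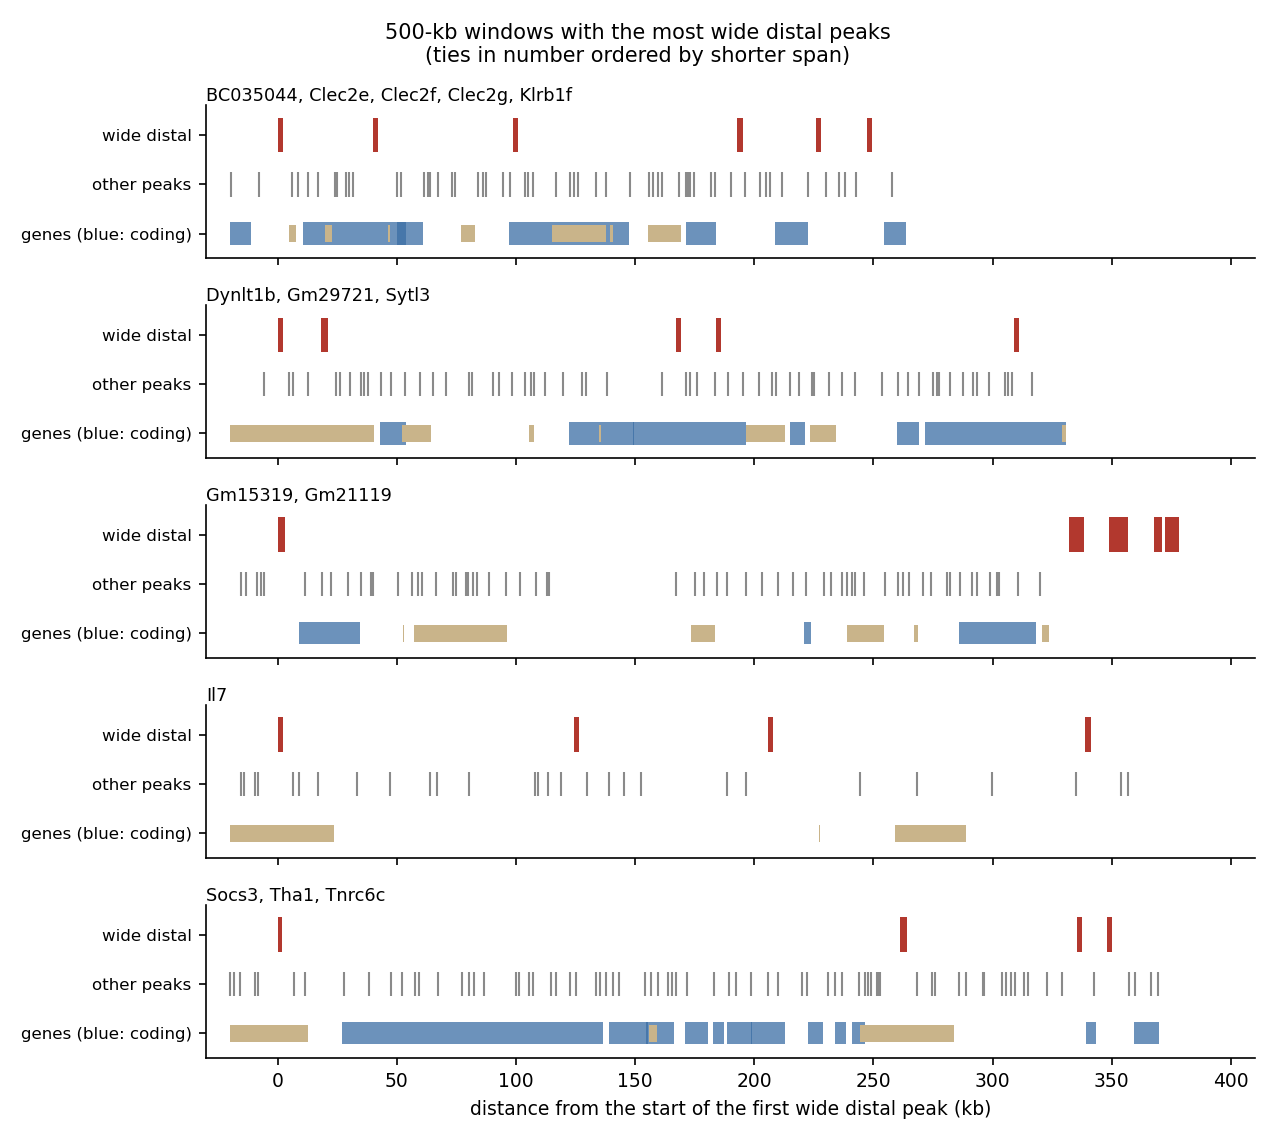
Maps of 5 windows of 500 kb, the 3 with the most wide distal peaks and the 2 of shortest span among 7 tied at 4, to scale in kb from the start of the first wide distal peak, with wide distal peaks in red, midpoints of other peaks as grey ticks, protein-coding genes in blue and other genes in tan. The Clec2 window has 6 wide distal peaks spread along it, while 4 of the 5 in the Gm21119 window crowd into 46.3 kb at one end.

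Loci with several genes of the same symbol stem were more common around wide distal peaks. A stem is the symbol without its trailing number and any single letter after that number, and likeness of the genes in sequence was not tested. A locus was called multi-copy where at least 3 genes sharing a symbol stem lay within 250 kb of the midpoint. Predicted genes with Gm, LOC or Rik names were given no stem. Clusters made of such genes were therefore not counted, and the 4 peaks of the Gm21119 run fell outside the call. Whether those loci hold repeated copies was not tested. This held for 174 of 1051 wide distal peaks (16.6%, interval 14.4 to 18.9%), against 11.6% of other distal peaks. With stems of small RNA genes left out, a choice made after the data were seen, it was 13.9% (interval 11.9 to 16.1%), against 9.80%.

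Among the families counted one by one, receptors of the chemical senses surrounded the most wide distal peaks beside small RNA genes. Olfactory receptor clusters, the largest gene family of the mouse, surrounded 22 wide distal peaks (2.09%, interval 1.39 to 3.15%), against 1.32% of other distal peaks. Vomeronasal receptor clusters, which detect pheromones, surrounded 18 (1.71%, interval 1.09 to 2.69%), against 0.790%. C-type lectin clusters surrounded 6 (0.571%, interval 0.262 to 1.24%), against 0.0770%, and these are the 6 peaks of the Clec2 window and so 1 locus. Cytochrome P450 clusters, enzymes of drug and steroid metabolism, surrounded 7 (0.666%, interval 0.323 to 1.37%), against 0.224%. The 4 peaks in clusters of the Dynlt stem (0.381%, against 0.0377%) are also 1 locus, that on chromosome 17.

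For zinc finger and defensin clusters the interval of wide distal peaks included the share of other distal peaks. Zinc finger gene clusters surrounded 9 wide distal peaks (0.856%, interval 0.451 to 1.62%), against 0.964% of other distal peaks. Defensin clusters, antimicrobial peptides, surrounded 3 (0.285%, interval 0.0971 to 0.836%), against 0.179%. Small RNA clusters, mainly microRNA genes, surrounded 31 (2.95%, interval 2.09 to 4.16%), against 1.94%, which lies below that interval. Reads from near-identical copies can be placed on any of them, and the sources used here do not say how multiply mapping reads were handled, so a peak in such a locus cannot be tied to 1 copy.

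Wide distal peaks were found on all 19 autosomes, at 0.304 per Mb on chromosome 14 to 0.723 per Mb on chromosome 11, with a median of 0.430. As a share of each chromosome's distal peaks they ran from 0.672% on chromosome 10 to 1.10% on chromosome 17, and the interval of chromosome 17, which began at 0.850%, included the 0.854% of all autosomes.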

How the data were processed

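The 18 ATAC-seq libraries are represented by 1 file of merged peaks. Its deposited values are positions only, a start and an end per peak, and any score of the authors is not given there. Tools in the submitters' processing notes are MACS2 2.2.7.1, Trimmomatic 0.36 and Bowtie2 2.4.2, with the builds GRCm38 and mm10. The sources used here do not give how peaks were called, merged and thresholded, and each of these steps can change a peak's width. Starts were read as 0-based, so width is end minus start, and printed coordinates count from 1.

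Gene positions came from a RefSeq table of GRCm38.p6 with 49595 genes, after 348 with scaffold coordinates were left out. Starts and strands came from the RefSeq promoter table, which covers 18 autosomes and holds no starts on chromosome 18. Some genes on the other autosomes, such as Atp6v1h, are also absent from it. Strand was therefore known for the hosts of 362 of 464 wide distal peaks in protein-coding genes. Starts of absent genes could not be counted, though their peaks on the 18 autosomes stay in the shares. Tests planned between times were not run, since no value per library was at hand, and the planned look at the sequence of whole peaks was not run without a genome. Members, lists and named genes were chosen with earlier results of these data known. The named genes are those linked to the 15 widest peaks, the 10 with the most peaks, the genes of the 5 largest runs, up to 4 linked genes per list, and the methyltransferase genes. Genes named for annotated starts, those of the densest windows and the pluripotency and signalling genes named for peaks under 2000 bp were chosen after their values were seen. The classification was tested on simulated peaks. Tables were computed with pandas 2.3.3 and numpy 2.4.6 in Python 3.11.15, intervals with scipy 1.17.1 and figures with matplotlib 3.10.9. Columns of values per sample left unused numbered 0.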

Additional observations from a re-analysis of the deposited data

How the results depend on the processing

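Of 44 alternative values for 6 quantities, 16 moved out of a set range and 28 did not, and the cause was not tested. The range was a factor of 1.5 for the number of peaks and the 95% interval of the reported value for the others. The number of wide distal peaks, 1051, became 4514 with a width of 1500 bp or more and 225 with 2500 bp or more. Within the range it was 791 with midpoints over 5 kb from gene ends and 1279 with ends of protein-coding genes only. The share inside a gene, 51.8%, was 47.9% with midpoints over 5 kb from gene ends and 46.8% without peaks that hold a start. The share within 10 kb of another wide distal peak, 2.28%, was 6.62% at 1500 bp, 0.889% at 2500 bp and 6.18% with a gap of 25 kb. The share of protein-coding genes linked, 4.64%, was 16.5% at 1500 bp, 1.06% at 2500 bp, 3.49% over 5 kb from gene ends, 3.98% when the nearest edge had to be over 2 kb away, 5.57% with ends of protein-coding genes only and 4.22% without peaks that hold a start. The share in multi-copy loci, 16.6%, was 14.4% at 1500 bp, 7.33% with at least 5 genes of 1 stem and 13.9% without small RNA stems. The median gap to the nearest peak, 4.42 kb, ran from 4.29 to 4.60 kb over its alternatives. Leaving out small RNA stems and leaving out peaks with a start were chosen after the data were seen. No paired analysis was possible because the file holds no value per library. Depth per library is unknown, so a region without a wide peak is not shown to be closed.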

Other observations

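Peaks of 2000 bp or more outside the autosomes, counted at any distance from genes, numbered 112 of 5355 on the X chromosome (widest 3380 bp), 5 of 290 on the Y chromosome (widest 4781 bp) and 23 of 322 on unplaced or unlocalised contigs (widest 9188 bp).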
